A study of Drosophila melanogaster with 18 samples.

Results

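Ir76a, TTLL4B, CG34051, CG7607, Reepl1 and Arpc1 are 6 genes whose signal shifted in arrays carrying Aop RNAi. They were chosen for the measured difference that Aop RNAi made, taken without or with overexpression of TFAM, so these differences are given as a description and not as a test. The 6 genes have 7 probe sets, of 11982 named genes and 18769 probe sets on the array, since TTLL4B has 2. Other values of the same genes, such as those in the Pnt RNAi arrays, do not enter the Aop RNAi differences. The genes were chosen with earlier results of these data known, so those values may not be wholly separate from the choice.

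RNA came from the dissected CNS of wandering Drosophila larvae of the last instar grown at 25 degrees, with 20 larvae pooled for each sample and 3 samples for each of 6 genotypes. Every genotype carried the driver nsybGal4, which acts in neurons, while the dissected tissue also holds glia and neural stem cells. The control was nsybGal4/+. TFAM o/e larvae carried UAS-TFAM3M, Pnt RNAi larvae the hairpin JF02227 and Aop RNAi larvae the hairpin 3166R1, each against the ETS transcription factor it is named for. The 2 remaining genotypes combined UAS-TFAM3M with 1 of the hairpins and are written TFAM o/e plus Pnt RNAi and TFAM o/e plus Aop RNAi. Each knock-down rests on 1 hairpin line, and the 3 samples of a genotype are separate pools, so the spread between them is that between pools.

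TFAM packages and transcribes mitochondrial DNA, and its overexpression in neurons disturbs mitochondria, which answer through signals that alter nuclear gene expression. In general Pnt is an ETS activator and Aop, also called Yan, an ETS repressor, and both are targets of Ras-ERK signaling. In motor neurons, the study placed both on the activating side of that pathway. The question behind the Aop RNAi arrays is what loss of Aop does to neuronal gene expression, alone and when mitochondria are disturbed. The 6 genes were not chosen as members of a pathway, and whether they share one was not tested. Ir76a is an ionotropic receptor, a family of ligand-gated channels best known from olfactory neurons. TTLL4B belongs to the tubulin tyrosine ligase-like enzymes, whose mammalian TTLL4 adds glutamate chains to tubulin. Reepl1 belongs to the REEP family, membrane proteins that in yeast and mammals bend tubular ER. Arpc1 is a subunit of the Arp2/3 complex, which starts branched actin filaments. No role is given here for CG34051 and CG7607.

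The values are log2 signals, 1 per probe set and array, and were used as deposited. The probe sets of Ir76a and Arpc1 end in _s_at, a class that can match more than 1 transcript. Array medians ran from 5.03 to 5.56, and between 46.4% and 49.7% of signals on an array fell under log2 5, the dim end of the scale. The probe set of TFAM rose with TFAM o/e, by 1.49 (standard error 0.12, limma adjusted p = 6.37e-07) over the control and Aop RNAi backgrounds. The probe set of aop, the gene the hairpin is meant to reduce, was at 10.68 ± 0.05 (SD, n = 3) in the control and at 10.70 ± 0.19 (SD, n = 3) with Aop RNAi. With TFAM o/e it was at 10.65 ± 0.06 (SD, n = 3), and at 10.66 ± 0.24 (SD, n = 3) with TFAM o/e plus Aop RNAi. The knock-down was therefore not visible in this probe set of whole CNS tissue, and every direction given for Aop RNAi rests on the array labels. With the same hairpin under another driver, the study reported that Aop staining was nearly lost in photoreceptor neurons of the eye disc. Markers of neurons, glia and neuroblasts were present in every genotype, with summed log2 signals of 13.1 to 13.6, 13.1 to 13.7 and 12.3 to 13.0.

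The 6 genes fell into 3 patterns. Ir76a was lower in the arrays labelled Aop RNAi with and without TFAM o/e. TTLL4B, CG34051 and Arpc1 differed without TFAM o/e and lay near their TFAM o/e level in the combined genotype. CG7607 and Reepl1 differed with TFAM o/e alone, and no difference between Aop RNAi and control was visible for them. In bulk tissue, fewer cells that express a gene and less RNA per cell cannot be told apart.

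**Figure D1:**
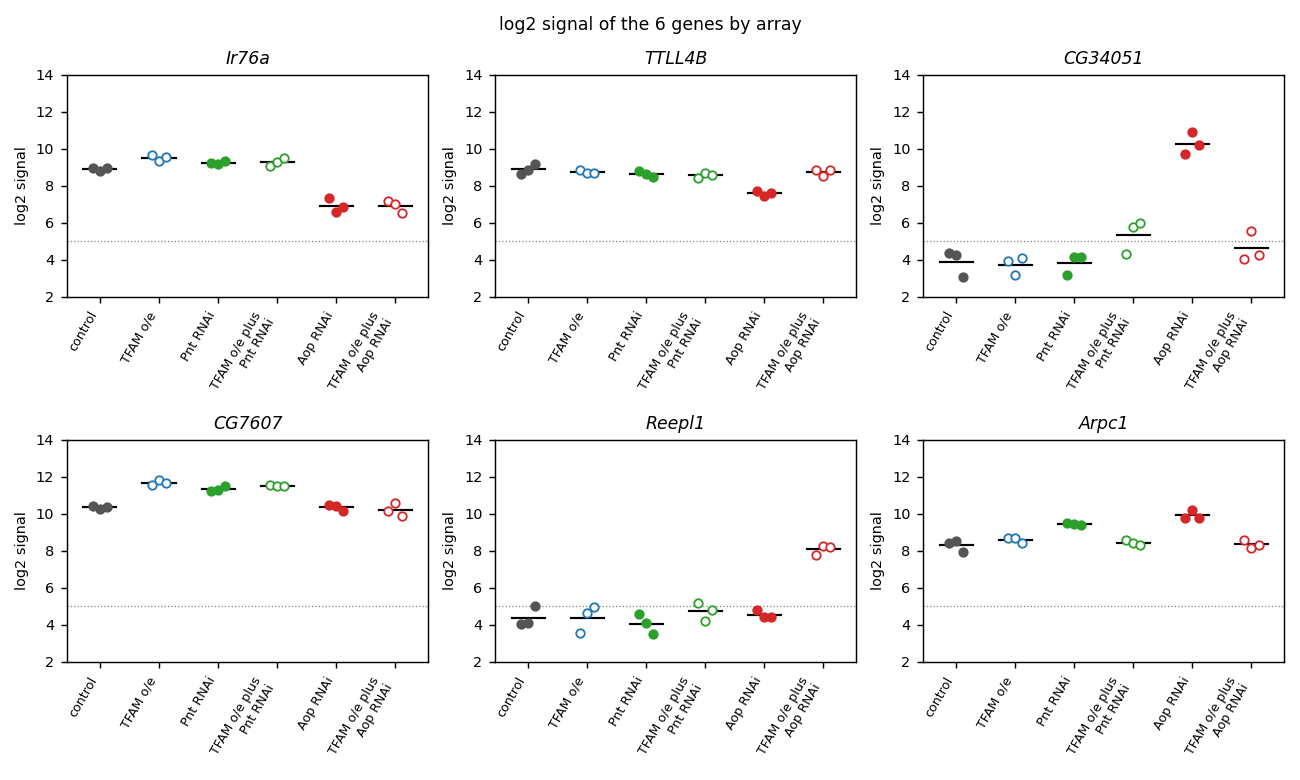
log2 signal of the 6 genes in each of the 18 arrays, by genotype along the horizontal axis; each point is 1 array, open points carry TFAM o/e, bars are means of 3 arrays, and the dotted line marks log2 5 (TTLL4B is drawn by its brighter probe set). The 6 points of both Aop RNAi genotypes sit at 7.34 or below for Ir76a, the 3 Aop RNAi points alone stand at 9.72 or above for CG34051, and the 3 points of TFAM o/e plus Aop RNAi alone at 7.80 or above for Reepl1.

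Ir76a (probe set 1633880_s_at, chromosome arm 3L) gave 8.97, 8.77 and 8.96 in the control arrays, and 7.34, 6.56 and 6.82 with Aop RNAi. With TFAM o/e it gave 9.66, 9.32 and 9.52, and with TFAM o/e plus Aop RNAi 7.17, 6.99 and 6.54. The arrays with the hairpin lay below those without it in both settings, with no overlap. The mean was 1.99 lower than in the control (standard error 0.20, 3.98-fold on the linear scale) and 2.60 lower than with TFAM o/e (standard error 0.20, 6.06-fold). Both Aop RNAi genotypes reached the same mean, 6.91 ± 0.40 and 6.90 ± 0.32 (SD, n = 3), and the larger difference with TFAM o/e came from the higher TFAM o/e level, 9.50 ± 0.17 against 8.90 ± 0.11 in the control (SD, n = 3). Ir76a gave 9.20, 9.16 and 9.34 with Pnt RNAi and 9.04, 9.26 and 9.48 with TFAM o/e plus Pnt RNAi. In the order of levels the 2 Aop RNAi genotypes overlapped each other and stood apart from the control, which in turn lay below both Pnt RNAi genotypes and TFAM o/e. Those 3 overlapped their neighbours in the order.

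TTLL4B is read by 2 probe sets on arm 2L. The brighter one (1633242_a_at) gave 8.61, 8.83 and 9.17 in the control and 7.72, 7.41 and 7.60 with Aop RNAi. The same probe set gave 8.85, 8.69 and 8.66 with TFAM o/e and 8.85, 8.53 and 8.83 with TFAM o/e plus Aop RNAi. Only the Aop RNAi arrays were low, 1.29 below the control (standard error 0.16, 2.45-fold), while with TFAM o/e the hairpin made a difference of 0.00 (standard error 0.16, 95% interval -0.34 to 0.34). With Pnt RNAi the signals were 8.80, 8.62 and 8.45, and with TFAM o/e plus Pnt RNAi 8.41, 8.66 and 8.56. All 15 arrays without the single Aop RNAi genotype lay between 8.41 and 9.17, and the means of the 5 other genotypes overlapped in their arrays. The dimmer probe set (1623691_at) was under log2 5 in 17 of the 18 arrays. It gave 4.30, 4.90 and 4.77 in the control and 4.02, 3.76 and 3.45 with Aop RNAi, a difference of -0.91 (standard error 0.40) that is 0 once signals under 32 (log2 5) are set to 32. It therefore adds no measurement of its own.

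CG34051 (1634569_at, arm 2L) gave 4.37, 4.25 and 3.04 in the control and 9.72, 10.91 and 10.18 with Aop RNAi. With TFAM o/e it gave 3.90, 3.17 and 4.07, and with TFAM o/e plus Aop RNAi 4.01, 5.56 and 4.26. The signal was thus near the dim end in the control and bright in the Aop RNAi arrays alone. The difference from the control was 6.38 (standard error 0.54), or 5.27 with signals under 32 set to 32, which is a 38.6-fold difference. With TFAM o/e the hairpin made a difference of 0.90 (standard error 0.54, 95% interval -0.24 to 2.03), or 0.19 with the same floor. Signals were 3.19, 4.14 and 4.13 with Pnt RNAi, and 4.30, 5.77 and 5.98 with TFAM o/e plus Pnt RNAi. The 3 Aop RNAi arrays stood 3.74 above the next array on the log2 scale, and the 5 other genotypes overlapped their neighbours in the order of levels.

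Arpc1 (1626492_s_at, arm 2L) gave 8.45, 8.55 and 7.93 in the control and 9.79, 10.20 and 9.80 with Aop RNAi. In TFAM o/e arrays it gave 8.67, 8.71 and 8.42, and in TFAM o/e plus Aop RNAi arrays 8.60, 8.17 and 8.34. The Aop RNAi mean was 1.62 above the control (standard error 0.17, 3.07-fold), and the hairpin made a difference of -0.23 with TFAM o/e (standard error 0.17, 95% interval -0.60 to 0.14). It gave 9.53, 9.46 and 9.39 with Pnt RNAi, and 8.61, 8.43 and 8.29 with TFAM o/e plus Pnt RNAi. Pnt RNAi was 1.15 above the same control arrays (standard error 0.17, 2.22-fold). The arrays of each single knock-down overlapped no other genotype, and the 4 remaining genotypes overlapped their neighbours in the order of levels.

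CG7607 (1626684_at, arm 3L) gave 10.42, 10.26 and 10.38 in the control and 10.46, 10.44 and 10.16 with Aop RNAi, so that the means differed by 0 (standard error 0.15, 95% interval -0.32 to 0.32). It gave 11.56, 11.83 and 11.68 with TFAM o/e and 10.13, 10.56 and 9.88 with TFAM o/e plus Aop RNAi. With TFAM o/e the hairpin thus went with a mean 1.5 lower (standard error 0.15, 2.83-fold), without overlap, at 10.19 ± 0.34 against 11.69 ± 0.14 (SD, n = 3). TFAM o/e was 1.34 above the control (standard error 0.15), and TFAM o/e plus Aop RNAi differed from that control by -0.16 (standard error 0.15, 95% interval -0.48 to 0.15). Signals were 11.24, 11.27 and 11.48 with Pnt RNAi, and 11.58, 11.52 and 11.48 with TFAM o/e plus Pnt RNAi. All 9 arrays of the control and both Aop RNAi genotypes were at 10.56 or below, and all 9 others at 11.24 or above. Within the upper set TFAM o/e plus Pnt RNAi overlapped both of its neighbours.

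Reepl1 (1629122_at, arm X) gave 4.04, 4.12 and 5.02 in the control, 4.82, 4.40 and 4.42 with Aop RNAi, and 3.57, 4.65 and 4.97 with TFAM o/e. It gave 7.80, 8.24 and 8.21 with TFAM o/e plus Aop RNAi. Signal was bright in the combined genotype alone, 3.69 above TFAM o/e (standard error 0.45), or 3.08 with signals under 32 set to 32, which is 8.48-fold. Without TFAM o/e the hairpin made a difference of 0.15 (standard error 0.45, 95% interval -0.79 to 1.09). Pnt RNAi arrays gave 4.60, 4.10 and 3.48, and those of TFAM o/e plus Pnt RNAi 5.18, 4.19 and 4.83. These 5 genotypes overlapped each other near the dim end, so no order can be read among them.

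**Figure D2:**
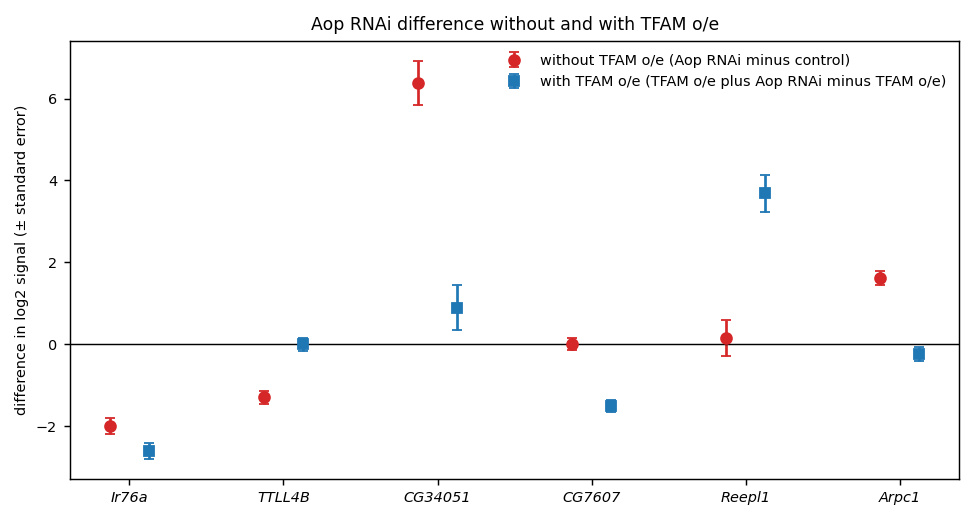
Difference in log2 signal that Aop RNAi made for each of the 6 genes, without TFAM o/e (circles) and with it (squares), as differences of means of 3 arrays with the standard error of limma as bars. Ir76a alone lies well below 0 in both settings (-1.99 and -2.60), CG34051 is at 6.38 without TFAM o/e and 0.90 with it, and Reepl1 at 0.15 and 3.69.

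In the comparison of Aop RNAi with the control, 4 of the 6 genes were past an adjusted p of 0.05, with Arpc1 and CG34051 higher and Ir76a and TTLL4B lower, against 0.176% of all probe sets. In that of TFAM o/e plus Aop RNAi with TFAM o/e, 3 were, with Reepl1 higher and CG7607 and Ir76a lower, against 0.0959%. These comparisons chose the genes, so nothing is read from the counts. Ir76a is the 1 gene in both. A change of setting moved some of the differences. With the averages of the study's methods, Arpc1 was 1.30 above the control. The 0.90 of CG34051 became 0.19 with these averages as well. No array left out changed a direction among the 7 differences that passed.

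TFAM o/e differences of the same genes were taken next. Averaged over the control and Aop RNAi backgrounds, Reepl1 was 1.77 higher with TFAM o/e (standard error 0.32) and CG7607 0.59 higher (standard error 0.11). CG34051 stood at -2.92 (standard error 0.38) and Arpc1 at -0.64 (standard error 0.12), while TTLL4B was 0.51 higher (standard error 0.11) and Ir76a 0.30 higher (standard error 0.14). The average is made of the 12 arrays whose Aop RNAi differences chose the genes, and a level particular to 1 genotype enters both, so it is a description with no test. The TFAM o/e difference of CG34051 was -0.17 in the control and -5.66 in the Aop RNAi background, and that of Arpc1 0.29 and -1.56. For Reepl1 it was 0.00 and 3.54, and for CG7607 1.34 and -0.16, so each of these averages drew mainly on 1 background.

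In that average 4 of the 6 genes were past an adjusted p of 0.05, against 0.314% of all probe sets. Nothing is read from this count, or from how often a gene stayed past that p under the alternatives. CG34051 was past it in 18 of 18 alternatives and Reepl1 in 14 of 18, the exceptions leaving out TFAM o/e replicate 2 or 3 or TFAM o/e plus Aop RNAi replicate 2 or 3. CG7607 was past it in 13 of 19, the exceptions being no intensity trend, the compared arrays alone, and leaving out control replicate 2, TFAM o/e replicate 2 or 3, or Aop RNAi replicate 3. Arpc1 was past it in 8 of 19. It was not with median centring, no intensity trend or the compared arrays alone, nor without control replicate 1 or 2, any TFAM o/e array, Aop RNAi replicate 2, or TFAM o/e plus Aop RNAi replicate 2 or 3. TTLL4B passed without control replicate 3 alone.

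In the Pnt RNAi background no array entered the Aop RNAi differences that chose the genes, and this is the 1 test made on them. Its spread was estimated over all 18 arrays, those that chose the genes included. TFAM o/e there lowered Arpc1 from 9.46 ± 0.07 to 8.44 ± 0.16 (SD, n = 3), a fall of 1.02 (standard error 0.17, limma adjusted p = 0.0169), without overlap between the arrays. Arpc1 was the 1 gene of the 6 past the threshold, against 0.139% of all probe sets. The call was lost without any Pnt RNAi array, or without TFAM o/e plus Pnt RNAi replicate 2 or 3, at an adjusted p of 0.0784 to 0.15. It was also lost with no intensity trend (0.0717), the compared arrays alone (0.0659) and the methods' analysis of variance (0.323). CG34051 was 1.53 higher (standard error 0.54, adjusted p = 0.677), or 0.58 with signals under 32 set to 32. Reepl1 was 0.67 higher (standard error 0.45, 95% interval -0.27 to 1.61), and CG7607 0.20 higher (standard error 0.15, 95% interval -0.12 to 0.51). Ir76a differed by 0.03 (standard error 0.20, 95% interval -0.39 to 0.44) and TTLL4B by -0.08 (standard error 0.16, 95% interval -0.42 to 0.26).

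**Figure D3:**
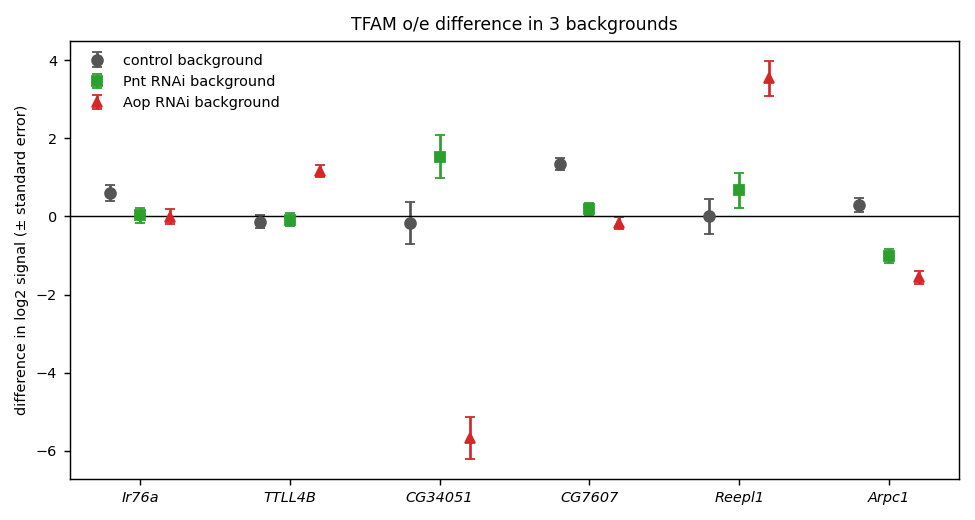
Difference in log2 signal that TFAM o/e made for each of the 6 genes in the control (circles), Pnt RNAi (squares) and Aop RNAi (triangles) backgrounds, as differences of means of 3 arrays with the standard error of limma as bars. Arpc1 is below 0 in both knock-down backgrounds (-1.02 and -1.56) and at 0.29 in the control, and CG34051 falls by 5.66 in the Aop RNAi background alone.

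The TFAM o/e difference in the Pnt RNAi background was also set against its average over the other backgrounds. That average holds the arrays that chose the genes, so the outcome is again a description with no test. CG34051 was at 4.45 (standard error 0.66), or 3.13 with signals under 32 set to 32. Most of this was the -2.92 of the average, since within the Pnt RNAi background the 1.53 had not passed. CG34051 was the 1 gene past an adjusted p of 0.05, against 0.0266% of all probe sets. It was not past it with quantile normalization, with no intensity trend, or without Pnt RNAi replicate 1 or TFAM o/e plus Pnt RNAi replicate 2 or 3. Reepl1, at -1.10 (standard error 0.55), passed with signals under 32 set to 32, where it was at -1.48.

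How sharply the arrays of each gene split was measured by sorting the 18 arrays and taking the largest gap between neighbours, a measure added after the values were seen. A gap of at least 0.5 that separated whole genotypes was found for 56 of 18769 probe sets, or 0.298%. All 6 genes had one, with the dimmer TTLL4B probe set the exception, and since the genes were chosen on overlapping differences nothing is read from this count. The gap ran from 7.34 to 8.77 for Ir76a, from 5.98 to 9.72 for CG34051 and from 5.18 to 7.80 for Reepl1. It ran from 7.72 to 8.41 for TTLL4B, from 10.56 to 11.24 for CG7607 and from 8.71 to 9.39 for Arpc1. No other probe set on the array split as Ir76a or CG7607 did with the same genotypes above. The split of CG34051, with Aop RNAi alone above, was shared by 5 others, among them Dnaaf3, CG11170 and CG4646. That of Arpc1 was shared by Cyp6a17, that of Reepl1 by CG12971 and that of TTLL4B by 1 probe set without a symbol. Splits in the reverse direction are not in these counts. In reverse, teq (gap 1.15) and a probe set without a symbol (gap 2.79) set the 2 Aop RNAi genotypes apart, as Ir76a did. Both were dim, with means of 1.98 and 3.27. RFeSP (gap 3.18) set the genotypes of Arpc1 apart in reverse.

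The genes most like each member were taken by Pearson r over the 18 arrays, among named probe sets with a mean log2 of at least 6. These values are descriptions, since arrays share genotypes and each gene was picked for its likeness over the same arrays. A pattern shared with the member follows from that choice, here and below, and nothing is read from it. Ir76a was closest to Ugt302K1, a UDP-glycosyltransferase (r = 0.89), ScsbetaG, a succinyl-CoA synthetase subunit (0.87), and CG11342 (0.87). Ugt302K1 was at 8.82 ± 0.10 in the control and 7.90 ± 0.09 with Aop RNAi, and at 8.88 ± 0.14 with TFAM o/e and 7.99 ± 0.22 with TFAM o/e plus Aop RNAi (SD, n = 3). Like Ir76a it was lower in both Aop RNAi genotypes, as the choice by r favours. With Pnt RNAi it was at 8.59 ± 0.20 and with TFAM o/e plus Pnt RNAi at 8.62 ± 0.26 (SD, n = 3), below its control mean, where Ir76a was above its own. CG7607 was closest to P5cr, the last enzyme of proline synthesis (r = 0.88), CG13029 (0.84) and ScsbetaG (0.82). P5cr was at 9.40 ± 0.15 in the control, 9.91 ± 0.22 with TFAM o/e, 9.93 ± 0.12 with Pnt RNAi and 9.84 ± 0.10 with TFAM o/e plus Pnt RNAi (SD, n = 3). It was at 9.34 ± 0.06 with Aop RNAi and 9.37 ± 0.21 with TFAM o/e plus Aop RNAi (SD, n = 3). The 3 genotypes with the higher means were those of CG7607, but their order within that set was not the same.

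CG34051 was closest to CG4646 (r = 0.91), CG42254 (0.86) and CG31955 (0.75). CG4646 was at 9.41 ± 0.14 in the control and 10.22 ± 0.21 with Aop RNAi, but at 9.47 ± 0.17 with TFAM o/e plus Aop RNAi (SD, n = 3). Arpc1 was closest to PGAP1, which acts on GPI anchors (0.79), CG2993 (0.77) and the centrosomal gene Cep135 (0.76). PGAP1 was at 9.49 ± 0.26 in the control, 10.34 ± 0.23 in the Pnt RNAi arrays and 10.25 ± 0.58 in the Aop RNAi arrays, and at 9.50 ± 0.27 and 9.32 ± 0.31 once TFAM o/e was added to each (SD, n = 3). The brighter TTLL4B probe set was closest to the mitochondrial PheRS-m (0.77), CG8728 (0.77) and CG10602 (0.76), the dimmer one to sol (0.73), Ir76a (0.73) and Exn (0.70). Among the members themselves, TTLL4B (brighter probe set) and CG34051 moved most against each other (r = -0.94) and Ir76a and CG7607 most together (0.80). Each pair was chosen on an Aop RNAi difference that both genes show, so nothing is read from these r values. In TTLL4B and CG34051 alike, the Aop RNAi arrays alone stood apart.

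Reepl1 was closest to Kmn1 (r = 0.83), Nep2, a neprilysin-like peptidase (0.79), and GstT3, a glutathione transferase (0.71). Kmn1, a kinetochore gene, is the gene next to Reepl1 on the X chromosome in the RefSeq order, with 0 genes between them. It was at 10.98 ± 0.08 with TFAM o/e and 11.60 ± 0.09 with TFAM o/e plus Aop RNAi, and at 10.95 ± 0.17 in the control and 11.01 ± 0.09 with Aop RNAi (SD, n = 3). Kmn1 was therefore highest in the genotype where Reepl1 was bright, by 0.62 against TFAM o/e. Nep2 was 1.42 higher in the same comparison.

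Neighbours on the chromosome were listed for all 6 members. Of the 60 genes lying within 5 places on either side of a member, 38 had a probe set, and 32 of these were bright enough to read (mean log2 6 or more). Their Aop RNAi differences ran from -0.44 to 0.46 without TFAM o/e, and from -0.26 to 0.62 with it, where the highest was Kmn1, and none reached 1 in size. CG14102, which overlaps Ir76a, differed by -0.31 without and 0.09 with TFAM o/e, and Plod, which overlaps CG7607, by 0.12 and -0.08. For CG34051 just 1 neighbour was bright enough to read.

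Few genes of the members' families passed a test. Of 52 other ionotropic receptors measured, none had a mean log2 of 6, none passed in either Aop RNAi comparison, and their median difference was 0.00 without and 0.34 with TFAM o/e, against 0.02 and 0.01 over all probe sets. Ir100a was the 1 call in the TFAM o/e average, where it fell by 2.27 (standard error 0.45, limma adjusted p = 0.0301), at a mean of 1.49 where signal is too dim to read. Among 10 other tubulin-modifying enzymes none passed in any of the 5 comparisons. TTLL15, TTLL5 and TTLL4A differed from the control by 0.36 (standard error 0.24), 0.29 (0.18) and 0.26 (0.24) with Aop RNAi, while TTLL4B differed by -1.29.

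For Arpc1 the other subunits of its complex are the nearest comparison. Of 5 measured, none passed in any comparison. Arpc2, Arpc4 and Arpc5 differed from the control by -0.04 to 0.03 with Aop RNAi and Arpc3A by 0.14 (standard error 0.15). Arpc3B, a paralog of Arpc3A, differed by -0.81 (standard error 0.49) and was 1.36 higher in the TFAM o/e average (standard error 0.34, limma adjusted p = 0.162). Of 11 regulators of the complex none passed, with differences of -0.07 to 0.38, the highest being Cortactin at 0.38 (standard error 0.21). Beside Reepl1, 8 other ER-shaping genes were measured and none passed. The bright ones among them lay between -0.17 and 0.08 with TFAM o/e, where Reepl1 was at 3.69, and included ReepA at -0.05 and ReepB at 0.04.

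**Figure D4:**
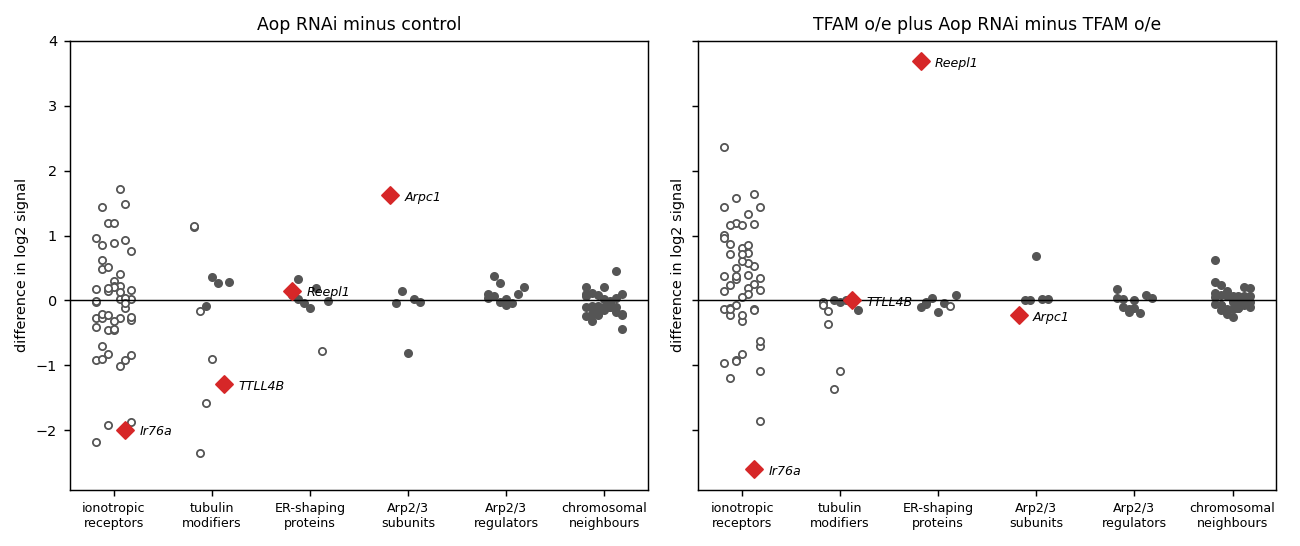
Differences in log2 signal for Aop RNAi minus control (left) and TFAM o/e plus Aop RNAi minus TFAM o/e (right), 1 point per gene, in the gene families of the members and among their chromosomal neighbours with a mean log2 of at least 6. Diamonds are the members, filled circles are other genes of that brightness and open circles dimmer genes; in the right panel Reepl1 stands at 3.69 while the filled points of its family lie between -0.17 and 0.08.

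Markers of other tissues were checked, since the dissected CNS can carry pieces of them. Of 6 markers of chemosensory organs, where Ir76a is known from adult flies, 5 were under log2 5 in every genotype. The other, Obp99a, was bright throughout, with genotype means from 12.82 (Pnt RNAi) to 13.22 (TFAM o/e plus Pnt RNAi). Salivary gland markers had a summed log2 signal of 9.35 to 12.5 in the control and 10.9 to 12.4 with Aop RNAi, and of 10.6 to 13.7 with TFAM o/e and 9.45 to 11.6 with TFAM o/e plus Aop RNAi. Their median difference was 0.60 without and -1.49 with TFAM o/e, and 0 of 7 passed. The 7 measured testis markers were lower with Aop RNAi than in the control, with a median of -3.27 and 0 of 7 past the threshold, at summed log2 signals of 5.58 to 6.49 against 7.82 to 12.1. Control replicate 3 held the 12.1, and control replicates 1 and 2, at 8.49 and 7.82, also lay above every Aop RNAi array. The Pnt RNAi arrays, at 5.89 to 6.63, were below every control array as well. With TFAM o/e the median testis difference was 0.41. Summed signals there were 5.97 to 9.89 with TFAM o/e and 6.19 to 8.41 with TFAM o/e plus Aop RNAi. Without control replicate 3 the Aop RNAi differences were -1.96 for Ir76a, -1.14 for TTLL4B, 5.96 for CG34051 and 1.43 for Arpc1. Leaving it out does not remove the difference in testis markers. Markers of ring gland, fat body, muscle and haemocytes had median Aop RNAi differences of 0.75, 0.43, 0.24 and -0.12 without TFAM o/e. With TFAM o/e the medians were 0.07, 0.39, -0.36 and 0.56, and none of these markers passed in either comparison. The part of all these tissues in the 6 genes was not tested.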

How the data were processed

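The authors hybridised cDNA from 10 ng of total RNA to 18 Affymetrix Drosophila Genome 2.0 arrays and processed them with the MAS5.0 algorithm in the Transcriptome Analysis Console; no scaling was added to the log2 signals the authors deposited. With 3 arrays a genotype, array number limits precision. The table holds 18952 probe sets, of which 183 are the maker's controls and were dropped. The platform table gave 13647 of the other 18769 exactly 1 symbol, 402 several and 4720 none, and 13544 symbols were updated by Entrez identifier. Chromosome arms and gene order came from RefSeq (Release 6). The members and gene lists were chosen with earlier results of these data known.

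limma 3.58.1 in R 4.3.3 fitted 1 linear model over the 6 genotypes (moderated test, intensity trend, two-sided, Benjamini-Hochberg over all probe sets, threshold 0.05) and tested on simulated data. For the members, TFAM o/e in the Pnt RNAi background was the test. The other comparisons use the arrays that chose them and are descriptions. Named genes were the members, the targets of the transgenes, list members past the threshold in a TFAM o/e test or with the largest Aop RNAi differences (at most 4 a list, mean log2 of at least 6), and the 3 genes most like each member; genes sharing a split were named after their values were seen. A gene outside the members was read by its brightest probe set. pnt had no probe set with a symbol in the tables used here. Alternatives were a floor of 32 under the signals, a minimum mean log2 of 6, quantile normalization, centring on array medians, the compared arrays alone, dropping the intensity trend, the replicate number as a block, the methods' analysis of variance with Tukey bi-weight averages, and leaving out each array. Figures used matplotlib 3.10.9 in Python 3.11.15. Sequences were not analysed here.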

Additional observations from a re-analysis of the deposited data

Results flagged for a closer look

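CG34051 was past the threshold for a difference between backgrounds: the TFAM o/e difference was 4.45 higher in the Pnt RNAi background than its average in the control and Aop RNAi backgrounds. That average holds the Aop RNAi arrays for which the gene was chosen, so the value is a description. For the same gene all 3 arrays with TFAM o/e lay above those without it in the Pnt RNAi background and below them in the Aop RNAi background. These TFAM o/e differences lay 7.19 apart, and that distance was not tested. No group had more than 3 arrays, so single arrays were not screened for outliers.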

How the results depend on the processing

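No called value, and no difference larger than the spread between replicates, changed sign. Values near 0 crossed it: Reepl1 against the control went from 0.15 to as low as -0.02, TTLL4B against TFAM o/e from 0.00 to -0.05, and in the Pnt RNAi background TTLL4B from -0.08 to 0.06 and Ir76a from 0.03 to -0.08. CG7607 against the control, at 0, ran from -0.05 to 0.10, and the dimmer TTLL4B probe set went from -0.05 to 0.08 in the difference between backgrounds. Of 190 member values given without a test, 182 moved by less than the spread between replicates, and of 390 from the TFAM o/e contrasts, 354 kept their side of the threshold. With signals under 32 set to 32, the dimmer TTLL4B probe set went to 0 in both Aop RNAi comparisons, CG34051 to 5.27 against the control and 0.19 against TFAM o/e, and Reepl1 to 3.08. With the methods' averages, Arpc1 went to 1.30 against the control, and TTLL4B and CG34051 to 0.16 and 0.19 against TFAM o/e. The cause was not tested.

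The counts of probe sets past the threshold were 33 for Aop RNAi against the control, 18 for TFAM o/e plus Aop RNAi against TFAM o/e, 59 for the TFAM o/e average, 26 for TFAM o/e in the Pnt RNAi background and 5 for the difference. With the compared arrays alone, the counts for the 2 Aop RNAi comparisons and the Pnt RNAi background became 6, 1 and 7, since fewer arrays gave the spread, and with the methods' analysis of variance after Benjamini-Hochberg 1, 0 and 0, at 492, 486 and 617 past its own thresholds. A mean log2 of at least 6 gave 11 for TFAM o/e plus Aop RNAi against TFAM o/e. Median centring gave 17 and no intensity trend 16 in the Pnt RNAi background. For the difference, quantile normalization gave 3 and the floor of 32 gave 18, and the compared arrays alone could not differ from all arrays. Leaving out each array gave 19 to 29, 9 to 15, 33 to 60, 12 to 21 and 3 to 6. The lowest of these came without Aop RNAi replicate 3, TFAM o/e replicate 3 in the next pair of counts, Pnt RNAi replicate 2, and any of Pnt RNAi replicate 1 and TFAM o/e plus Pnt RNAi replicates 2 and 3.

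The replicate number as a block gave 48, 19, 80, 35 and 6 probe sets, and moved no member across the threshold. Arrays of the same number in the genotypes compared had residual correlations of -0.14 to 0.47 over 8582 probe sets. These were not all above 0.1, so the arrays were not taken as pairs. The summed signal of ring gland markers fell from replicate 1 to 2 to 3 in each genotype, in the control from 12.88 to 12.24 to 11.26. What the number stands for is not given in the labels and was not tested.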
